A study of Mus musculus with 16 samples.

Results

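Osteoblasts from long bones of Pthrp-/- mouse fetuses, which cannot make parathyroid hormone-related protein, were cultured with PTHrP1-36 under simulated microgravity (0g) or under normal gravity (1g), and the 0g cultures were set against the 1g cultures. All arrays labelled with the Pthrp-/- genotype and the peptide were taken, which gave 4 of the 16 arrays of the series, 2 at 0g and 2 at 1g. Both groups came from C57BL/6 fetuses taken shortly before birth, because the knockout mice die around birth, and both grew as trabecular osteoblast cultures (TOs) on microcarriers that received 10 nM peptide for 2 h on each of 6 days. The 0g cultures turned in a high-aspect-ratio rotating vessel, and those at 1g were kept still in plasticware with an agarose coat, so gravity and the kind of vessel cannot be told apart. The labels name the femur in one field and the tibia in another as the source bone. The duplicates are repeat experiments by the study's methods, but neither these nor the labels say whether the animals differed, so each p-value here is set by the spread of these particular cultures, part of which may be technical. Gravity is recorded in the labels alone, and every direction given here rests on them. The other arrays hold untreated Pthrp-/- TOs and Pthrp+/+ TOs with and without the peptide, 2 per condition.

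PTHrP is a paracrine peptide that acts on osteoblasts through Pth1r, a receptor it shares with parathyroid hormone and which raises cAMP inside the cell. In the skeleton it holds growth plate chondrocytes in the proliferating state and supports bone formation by osteoblasts. Pthrp-/- cells make none of their own, and here both groups were given the same dose of the peptide. The array has no probe for Pthlh, the gene that encodes PTHrP, and the deletion could not be checked.

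The 4 arrays had 12536 to 12927 probes with a detection p-value under 0.05, within the range of 12161 to 13560 over all 16 arrays. Over the 15279 tested probes the 0g arrays correlated with each other at 0.9954 and the 1g arrays at 0.9952, while pairs across the groups correlated at 0.9869 to 0.9889. With 2 arrays per group the number of arrays limits the precision. All levels below are log2 intensities after background correction and quantile normalization, and differences are log2 values of 0g minus 1g ± SE from a limma fit over all arrays.

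Osteoblast identity was checked first. Sparc and Col1a1, which encode abundant proteins of bone matrix, were detected on all 4 arrays, and Col1a1 stood at 11.32 and 11.22 at 0g and at 11.16 and 11.39 at 1g. Ibsp, which encodes bone sialoprotein, was detected on none of the 4 arrays, and Alpl, the alkaline phosphatase of mineralizing osteoblasts, on 1 array of each group. Of the 25 osteoblast markers listed 18 were tested, with 11 detected on all 4 arrays and 1 on none of them. Summed on the linear scale, the 18 tested osteoblast markers gave 31289 and 33020 at 0g and 39932 and 41241 at 1g. The brightest genes weigh most in such a sum. The median log2 difference of the 18 markers was -0.10, and 14 of them did not pass the test. Less RNA per cell and fewer cells of a type cannot be told apart in these bulk cultures. Of 29 tested macrophage markers, 16 were detected on none of the 4 arrays, Adgre1, Itgam, C1qa and Ptprc among them. A further 6 were detected on all 4 arrays. Of the 29, 1 passed the test as higher at 0g and 0 as lower, with a median difference of 0.04. The linear sum over the 29 markers was 1477 and 1636 at 0g against 1197 and 1222 at 1g. All 6 osteoclast markers failed the test, with 0 of them at an unadjusted p under 0.05.

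At 0g, 543 genes rose and 373 fell among the 10437 tested, at a Benjamini-Hochberg adjusted p under 0.05. These are 5.2% and 3.57% of the tested genes, and 2324 genes (22.3%) had an unadjusted p under 0.05. With the study's thresholds, a fold change above 2.0 or below 0.5 at an unadjusted p under 0.05, 116 genes rose (1.11%) and 61 fell (0.584%). In the authors' normalized values these counts were 34 and 14, and without background correction 69 and 36. The median log2 difference over all tested genes was 0.00. With 2 arrays per group the groups did not overlap in 5945 of the 10437 tested genes (57.0%), called or not, so where separate groups are mentioned below this describes the arrays and adds nothing to the test. The total of 916 genes was 529 without 0g replicate 1, 548 without 0g replicate 2, 610 without 1g replicate 1 and 502 without 1g replicate 2.

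The 12 largest rises and the 12 largest falls were taken from called genes whose groups do not overlap, so their separation follows from the choice. Lum, which encodes lumican, a small leucine-rich proteoglycan that binds collagen fibrils, had log2 levels of 11.17 and 11.18 at 0g and of 7.99 and 8.05 at 1g. The duplicates lay close together in each group, and the difference was 3.16 ± 0.12 (adjusted p 8.65e-09), an 8.91-fold rise. Scara5, a scavenger receptor that takes up ferritin, stood at 9.04 and 9.03 at 0g and at 5.73 and 6.07 at 1g (3.13 ± 0.15, adjusted p 4.38e-08). Cxcl1, a chemokine that attracts neutrophils, stood at 9.35 and 9.41 at 0g and at 6.48 and 6.30 at 1g (2.99 ± 0.11, adjusted p 8.65e-09). Both genes were at much the same level on the 2 arrays at 0g. Dcn, which encodes decorin, another collagen-binding proteoglycan of the lumican family, stood at 11.59 and 11.51 at 0g and at 8.63 and 8.68 at 1g (2.89 ± 0.12, adjusted p 1.48e-08).

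Angptl7, an angiopoietin-like secreted protein, was at 7.29 and 7.15 at 0g and was not detected on either 1g array, which makes it at least 4.97-fold higher at 0g, measured against the level at which detection begins. Agtr1a, the type 1a angiotensin II receptor, stood at 7.57 and 7.42 at 0g and at 4.55 and 4.96 at 1g, where only 1 of the 2 arrays detected it (2.74 ± 0.21). Matn4, a matrilin of the extracellular matrix, stood at 9.88 and 9.73 at 0g and at 7.31 and 7.05 at 1g (2.63 ± 0.17). The 1g arrays of Agtr1a were further apart from each other than those of Matn4. Olfml1, a secreted protein with an olfactomedin domain, differed by 2.56 ± 0.14, and Ackr4, an atypical receptor that scavenges chemokines, by 2.55 ± 0.12, with 1 of 2 arrays at 1g detecting each. Ptn, which encodes the heparin-binding growth factor pleiotrophin, stood at 11.42 and 11.41 at 0g and at 9.09 and 8.82 at 1g (2.46 ± 0.11). Ldb2, a cofactor of LIM-domain transcription factors, and Lrrn3, a leucine-rich repeat membrane protein, differed by 2.40 ± 0.20 and 2.29 ± 0.13. All 12 of these rises had an adjusted p of at most 6.03e-06.

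The largest fall at 0g was in Cck, which encodes the gut and brain peptide cholecystokinin, at 6.25 and 6.00 at 0g and 8.82 and 8.72 at 1g (-2.65 ± 0.13, adjusted p 5.12e-08). The 0g level was 0.16 times that at 1g. Havcr2, the immune checkpoint receptor TIM-3, stood at 5.16 and 4.66 at 0g, with detection on 1 of 2 arrays, and at 7.37 and 7.26 at 1g (-2.41 ± 0.14). Cxcr6, the receptor of the chemokine Cxcl16, stood at 6.66 and 6.21 at 0g and at 8.17 and 8.61 at 1g (-1.96 ± 0.23). Ctsll3, a cathepsin L-like gene, and Spink6, a serine protease inhibitor, were not detected on either 0g array and were at least 2.87-fold and at least 2.95-fold lower there. Both had close duplicates at 1g, at 6.39 and 6.53 for Ctsll3 and at 6.61 and 6.40 for Spink6.

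Of the other large falls, Atp2a3, a calcium pump of the endoplasmic reticulum, stood at 5.46 and 4.87 at 0g and at 7.15 and 6.93 at 1g (-1.87 ± 0.18). Chrna1, a subunit of the muscle acetylcholine receptor, stood at 6.11 and 6.18 at 0g and at 7.80 and 8.02 at 1g (-1.76 ± 0.13). Atp1b1, the beta subunit of the sodium pump, stood at 7.53 and 7.48 at 0g and at 9.17 and 9.07 at 1g (-1.62 ± 0.11). The 0g arrays of Atp2a3 were the furthest apart of these pairs. Slco4a1, an organic anion transporter, differed by -1.77 ± 0.18 on the probe used, while a second probe of the gene gave 0.07. Col10a1, the collagen of hypertrophic cartilage, was at 6.52 and 6.38 at 0g and at 8.09 and 8.17 at 1g (-1.68 ± 0.15). It was the only 1 of 8 tested chondrocyte markers that passed the test.

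The prolactin-related Prl2c genes, which encode proliferins, fell as a family, with 4 of 4 tested genes lower at 0g and a median difference of -1.59. Prl2c3 stood at 12.51 and 12.38 at 0g and at 14.00 and 14.19 at 1g (-1.65 ± 0.11, adjusted p 6.99e-07). Prl2c1 differed by -1.65 ± 0.20 and Prl2c4 by -1.54 ± 0.12. The copies of this family are close to identical, and the probes may not tell them apart. Prl2c5 was not detected at 0g, and its call was lost when any of the 4 arrays was left out.

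**Figure D1:**
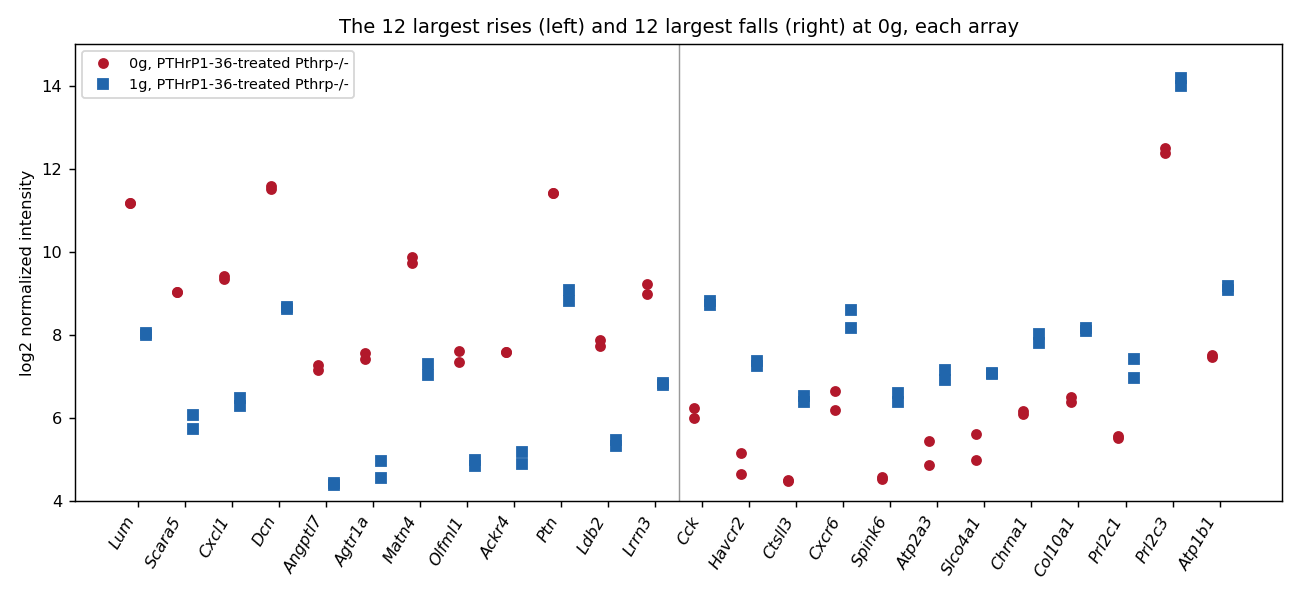
Log2 intensity of the 12 largest rises (left) and 12 largest falls (right) on each array of the PTHrP1-36-treated Pthrp-/- TOs, with the 0g arrays as red circles left of the 1g arrays as blue squares. Lum is at 11.17 and 11.18 at 0g against 7.99 and 8.05 at 1g; all 24 genes were chosen among called genes whose groups do not overlap.

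Small leucine-rich proteoglycans, which bind collagen fibrils and growth factors in the matrix, had 6 of 10 tested members higher, 0 lower and a median difference of 1.01. Ogn, which encodes osteoglycin, stood at 12.51 and 12.47 at 0g and at 10.44 and 10.41 at 1g (2.06 ± 0.11, adjusted p 8.39e-08). Omd, which encodes osteomodulin of bone matrix, stood at 6.83 and 6.64 at 0g and at 5.14 and 5.29 at 1g (1.52 ± 0.13). In both the duplicates were closer to each other than to the other group. Fmod, which encodes fibromodulin, rose by 0.81 ± 0.12 on the probe used, against 0.38 on a second probe that did not pass, and Podn, which encodes podocan, was not detected at 1g and was at least 1.74-fold higher at 0g. The number of rises was 5 to 7 under every alternative processing. This list includes Lum and Dcn, so its count is not independent of the largest rises.

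Other matrix genes were mixed. Of 20 non-collagen matrix glycoproteins 8 rose and 1 fell, with a median of 0.19. Thbs2, a thrombospondin that binds matrix and growth factors, stood at 12.68 and 12.70 at 0g and at 11.61 and 11.54 at 1g (1.12 ± 0.11). Mfap2, a microfibril protein, rose by 1.13 ± 0.12, and Mfap4, another microfibril protein, was not detected at 1g and was at least 1.85-fold higher at 0g. Fbln1, which encodes fibulin, rose by 1.56 ± 0.13 on the probe used, but 2 other probes did not make the same call. Tnc, which encodes tenascin C, fell by 0.52, a call lost without 0g replicate 1, 0g replicate 2 or 1g replicate 2. Among 11 fibrillar and associated collagens only Col14a1 passed, at 7.15 and 7.17 at 0g and 5.39 and 5.22 at 1g (1.85 ± 0.12). Col14a1 associates with fibrils and does not form them, and Col1a1, the main fibrillar collagen of bone, differed by 0.00 ± 0.27. Of 15 basement membrane genes 2 rose and 2 fell, with Col15a1 at -1.61 ± 0.14 and Col7a1, the anchoring fibril collagen, at -1.31 ± 0.12.

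Among 14 IGF system genes 4 rose and 0 fell. The ligand Igf2, an imprinted fetal growth factor, stood at 11.30 and 11.22 at 0g and at 9.50 and 9.32 at 1g (1.85 ± 0.10, adjusted p 1.23e-07), and the ligand Igf1 rose by 1.31 ± 0.16. The binding proteins Igfbp5 and Igfbp2 rose by 1.49 ± 0.13 and 0.89 ± 0.10. The other 10 genes of the list did not pass. Of 8 imprinted growth genes 3 rose and 0 fell, Igf2 among them. The others were Mest (1.96 ± 0.22) and Cdkn1c, an imprinted inhibitor of cyclin-dependent kinases, at 12.23 and 12.29 at 0g and 10.66 and 10.55 at 1g (1.66 ± 0.15).

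Among 23 BMPs, activins and their antagonists 3 rose and 5 fell. Bmp4, an osteogenic ligand, stood at 10.99 and 11.05 at 0g and at 9.17 and 9.31 at 1g (1.78 ± 0.10, adjusted p 1.69e-07). Gdf10, a BMP-family member, rose by 1.52 ± 0.11. Grem1, a secreted BMP antagonist, ran the other way, at 10.03 and 10.30 at 0g and 11.17 and 11.43 at 1g (-1.14 ± 0.15). Inhbb, the activin beta B subunit, differed by -0.92 ± 0.17. The median of the list was -0.01. Of 11 Wnt antagonists 2 rose and 1 fell. The secreted frizzled-related proteins Sfrp1, at 1.63 ± 0.10, and Sfrp2, at 1.48 ± 0.18, were the rises. The fall was in Sostdc1, which was not detected at 0g, and its call was lost when any of the 4 arrays was left out.

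Genes of the PTHrP receptor pathway were examined because both groups received the peptide. Pth1r stood at 6.60 and 6.57 at 0g and at 6.93 and 6.90 at 1g, a difference of -0.33 ± 0.20 that did not pass (adjusted p 0.387). Its other probes disagreed with each other, at -0.55 (adjusted p 0.0134) and -0.11 (adjusted p 0.715). Of 19 receptor and cAMP response genes 2 rose and 2 fell. Ramp2, which pairs with class B receptors, stood at 8.14 and 8.04 at 0g and at 6.78 and 6.95 at 1g (1.22 ± 0.10), and Ramp3 of the same family at 6.86 and 6.83 at 0g and at 7.92 and 7.83 at 1g (-1.03 ± 0.12). The paralogs thus differed in opposite directions. Fos, an immediate early transcription factor, stood at 9.86 and 9.82 at 0g and at 8.37 and 8.18 at 1g (1.56 ± 0.15), and Nr4a2, an orphan nuclear receptor, differed by -0.94 ± 0.11.

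Over the wider list of 22 immediate early genes 4 rose and 2 fell. Zfp36, which encodes an mRNA decay factor, rose by 1.24 ± 0.10. Ier2 was not detected at 1g and was at least 2.08-fold higher at 0g.

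Of the 18 osteoblast markers 1 rose and 3 fell. Sp7, the osterix transcription factor of bone-forming cells, stood at 7.65 and 7.62 at 0g and at 8.75 and 8.91 at 1g (-1.19 ± 0.11, adjusted p 1.08e-05). Both 0g arrays were below both 1g arrays. Ank, a pyrophosphate exporter that restrains mineralization, stood at 12.41 and 12.54 at 0g and at 13.33 and 13.31 at 1g (-0.85 ± 0.10). Msx2, a homeobox factor of osteoblasts, fell by 0.50, and its call was lost when any of the 4 arrays was left out. The rise was Omd, a proteoglycan counted above.

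Most cell cycle genes that passed the test were higher at 0g. Of 20 mitosis genes 9 rose and 0 fell, with a median of 0.43. Nusap1, a spindle protein, stood at 6.15 and 6.24 at 0g and at 5.03 and 4.95 at 1g (1.21 ± 0.12, adjusted p 2.80e-05). Cdca3, a regulator of mitotic entry, rose by 0.93 ± 0.14, and Cdc20, an activator of the anaphase-promoting complex, stood at 8.06 and 8.10 at 0g and at 7.46 and 7.05 at 1g (0.83 ± 0.16). The mitotic kinase Plk1 rose by 0.81 ± 0.14. The 1g arrays of Cdc20 differed more from each other than its 0g arrays. Other probes of Cdc20 and Cdca3 did not make the same call, and the call of Cdc20 was lost without 1g replicate 2. With the authors' normalized values 4 of the 20 mitosis genes rose.

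Of 26 S phase genes 7 rose and 1 fell. Tk1, a thymidine kinase, stood at 6.55 and 6.45 at 0g and at 5.14 and 5.60 at 1g (1.14 ± 0.15), with 0.18 on a second probe that did not pass. Uhrf1, which maintains DNA methylation at replication, rose by 0.85 ± 0.10, and Mcm5, a replicative helicase subunit, by 0.74 ± 0.11. The large subunit of ribonucleotide reductase, Rrm1, was at 0.56 ± 0.15, and its small subunit Rrm2 was the fall, at -0.50 ± 0.14, which passed only without 1g replicate 2 when 1 of the arrays was left out. Of the S phase genes 3 rose without 0g replicate 1 or without 1g replicate 2, and 4 without 0g replicate 2 or without 1g replicate 1. The call of Rrm1 was lost when any of the 4 arrays was left out. Among 10 D cyclins and CDK inhibitors 3 rose and 0 fell. The list mixes cyclins with inhibitors of the cell cycle, and the inhibitor Cdkn1c, given above, rose.

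The promoters of the mitosis genes were read for the cell cycle genes homology region, TTTGAA on either strand (TTCAAA on the other), a motif found in many promoters of genes expressed in mitosis. A window of 300 bases at the transcription start was available for 18 of the 20 genes in RefSeq (GRCm38.p6), and 15 held the motif, against 17.9% of all 32851 windows. The motif was in 7 of 9 that rose and in 8 of 9 that did not pass. The windows of Cdc20 (chr4:118437294-118437593, minus strand) and Cdca3 (chr6:124829926-124830225, plus strand) are shown as examples from genes named above, with matches in capitals.
Cdc20: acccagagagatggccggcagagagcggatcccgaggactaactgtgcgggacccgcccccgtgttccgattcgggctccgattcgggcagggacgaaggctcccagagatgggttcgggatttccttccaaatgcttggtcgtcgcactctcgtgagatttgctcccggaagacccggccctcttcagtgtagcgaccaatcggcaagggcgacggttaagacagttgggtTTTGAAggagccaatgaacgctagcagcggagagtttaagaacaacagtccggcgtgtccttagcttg
Cdca3: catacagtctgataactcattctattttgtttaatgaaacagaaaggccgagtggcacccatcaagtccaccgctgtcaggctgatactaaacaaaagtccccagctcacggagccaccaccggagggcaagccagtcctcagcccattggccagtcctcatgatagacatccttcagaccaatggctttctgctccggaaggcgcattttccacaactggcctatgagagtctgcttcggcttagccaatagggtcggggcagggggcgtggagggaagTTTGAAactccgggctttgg

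Histone genes split by type. Of 14 H2A genes 7 rose and 1 fell, with a median of 0.46, while of 17 H1, H3 and H4 genes 1 rose and 6 fell, with a median of -0.37. Of 11 H2B genes 0 passed the limma test, 1 of them at an unadjusted p under 0.05. H2ac24 stood at 11.10 and 11.17 at 0g and at 10.31 and 10.25 at 1g (0.85 ± 0.16), and H2ac10 differed by 1.06 ± 0.22. H4c8 ran the other way, at 10.21 and 10.29 at 0g and 11.02 and 10.89 at 1g (-0.71 ± 0.12), as did H4c18 (-0.96 ± 0.18) and H4c12 (-0.83 ± 0.13). The 1 rise outside H2A was H3c7 (0.95 ± 0.14). Copies within a histone type are nearly identical, so probes of one type may not be independent. With any 1 of the 4 arrays left out 3 of the H1, H3 and H4 genes fell, and the call of H2ac10 was lost without 0g replicate 1 or 1g replicate 2.

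Interferon-stimulated genes, the targets of type I and type II interferon signaling, rose in 10 of 24 tested members, with 0 falling and a median of 0.35. The list held 8 members detected on none of the 4 arrays. Gbp2, a guanylate-binding protein, stood at 8.00 and 7.96 at 0g and at 7.00 and 6.95 at 1g (1.01 ± 0.11, adjusted p 6.90e-05), although a second probe gave 0.09. Parp14, an ADP-ribosyltransferase, stood at 5.99 on both 0g arrays and at 5.22 and 4.95 at 1g (0.90 ± 0.15), and Ifi27 at 12.39 and 12.18 at 0g and at 11.53 on both 1g arrays (0.76 ± 0.11). Isg15, a ubiquitin-like modifier, stood at 6.47 and 6.24 at 0g and at 5.89 and 5.12 at 1g (0.85 ± 0.24, adjusted p 0.0484). The call of Isg15 was lost without 0g replicate 1, 0g replicate 2 or 1g replicate 2. The count of rises was 5 without 0g replicate 1, 6 without 0g replicate 2, 8 without 1g replicate 1, 6 without 1g replicate 2 and 4 with the 8 Pthrp-/- arrays alone. The macrophage marker sum given above was also higher at 0g, and its part in these rises was not tested.

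The interferon-stimulated response element was searched on both strands as GAAA, any 2 bases and GAAA again. It was in any window of 10 of the 17 tested members with a searched window. Of the single windows searched, 3.44% held it, again a share per window and not per gene. It was in 4 of 7 that rose and in 6 of 10 that did not pass. The windows of Isg15 (chr4:156200769-156201068, minus strand) and Gbp2 (chr3:142620413-142620712, plus strand) are shown as examples, with matches in capitals.
Isg15: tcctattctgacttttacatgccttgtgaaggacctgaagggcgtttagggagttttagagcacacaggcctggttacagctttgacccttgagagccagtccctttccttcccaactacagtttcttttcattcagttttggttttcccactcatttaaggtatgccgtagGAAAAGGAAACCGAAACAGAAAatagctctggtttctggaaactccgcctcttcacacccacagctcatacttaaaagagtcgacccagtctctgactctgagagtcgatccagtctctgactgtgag
Gbp2: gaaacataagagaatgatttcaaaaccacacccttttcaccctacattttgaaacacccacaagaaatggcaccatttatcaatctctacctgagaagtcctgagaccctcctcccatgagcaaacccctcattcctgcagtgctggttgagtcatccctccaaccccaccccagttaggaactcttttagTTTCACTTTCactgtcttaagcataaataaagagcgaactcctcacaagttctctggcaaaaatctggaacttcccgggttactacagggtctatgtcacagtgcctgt

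Among 21 chemokines 3 rose and 3 fell. Against the rise of Cxcl1 stood falls of the monocyte attractants Ccl2, at 5.96 and 5.83 at 0g and 7.49 and 7.51 at 1g (-1.60 ± 0.15), and Ccl7, at 9.45 and 9.64 at 0g and 10.57 and 10.90 at 1g (-1.19 ± 0.17). Cxcl12, which retains hematopoietic cells in the marrow, rose by 0.95 ± 0.12 on the probe used, with 0.07 on another probe.

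Most antioxidant genes that passed the test were lower at 0g. Of 28 NRF2 and glutathione genes 9 fell and 1 rose, with a median of -0.33. Nqo1, a quinone reductase and classic NRF2 target, stood at 11.60 and 11.67 at 0g and at 12.73 and 12.74 at 1g (-1.10 ± 0.12, adjusted p 4.81e-05). The glutathione transferases Gsta1 and Gsta2, which are close paralogs, differed by -1.33 ± 0.13 and -1.29 ± 0.14. Gclm, a subunit of the enzyme that begins glutathione synthesis, stood at 9.04 and 8.77 at 0g and at 9.79 and 9.82 at 1g (-0.90 ± 0.13). The exception was Gstm1, another glutathione transferase, with 0.57 ± 0.11 on the probe used and 0.02 on a second probe. Of 18 heat shock genes 4 fell and 0 rose, and the count of falls was 1 with any 1 of the 4 arrays left out.

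Among 14 glycolysis enzymes 4 fell and 0 rose. Gapdh stood at 13.53 and 13.56 at 0g and at 13.97 and 14.00 at 1g (-0.44 ± 0.09), and Pkm, the last enzyme of the pathway, differed by -0.69 ± 0.13. Pgam1 and Hk2 differed by -0.62 ± 0.14 and -0.54 ± 0.11. The call was lost for Gapdh without 0g replicate 1, 0g replicate 2 or 1g replicate 2, for Pgam1 without 0g replicate 1, 1g replicate 1 or 1g replicate 2, for Pkm without 1g replicate 2 and for Hk2 without 1g replicate 1. The falls numbered 2 without 0g replicate 1, 3 without 0g replicate 2, 2 without 1g replicate 1 and 1 without 1g replicate 2. Hypoxia-induced genes did not move together, with 3 of 26 higher, 3 lower and a median of -0.10. Selenbp1 (1.11 ± 0.12) and Ndrg1 (0.71 ± 0.10) rose and Pfkfb4, which controls glycolytic flux, fell (-0.92 ± 0.10).

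Of 10 smooth muscle contractile genes 5 rose and 0 fell, with a median of 0.47. Actg2, the enteric smooth muscle actin, stood at 11.69 and 11.65 at 0g and at 11.03 and 11.01 at 1g (0.65 ± 0.12), and Tagln, an actin-binding protein, at 9.74 and 9.85 at 0g and at 9.37 and 9.26 at 1g (0.48 ± 0.10). The count of rises was 2 without 0g replicate 1, 1 without 0g replicate 2, 3 without 1g replicate 1 and 2 without 1g replicate 2, and the call of Tagln was lost without 0g replicate 2 or 1g replicate 2. Of 5 tested skeletal muscle markers 2 rose and 1 fell, with a median of 0.26. The fall was in Des, the intermediate filament of skeletal muscle, at 7.91 and 8.10 at 0g and 9.22 and 9.34 at 1g (-1.27 ± 0.12).

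Of 13 neuropeptide and neurotrophin genes 2 rose and 5 fell, Cck among the falls. Npy, which encodes neuropeptide Y, stood at 6.04 and 6.15 at 0g and at 7.30 and 7.40 at 1g (-1.25 ± 0.10). Tac1, which encodes substance P, stood at 5.18 and 4.92 at 0g, with detection on 1 of 2 arrays, and at 6.43 and 6.15 at 1g (-1.24 ± 0.14). Nts, which encodes neurotensin, rose by 1.22 ± 0.13 on the probe used, with 0.08 on another probe.

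Housekeeping machinery gave no calls in the main fit, though each list had members called under some alternatives. Of 48 oxidative phosphorylation subunits, 47 cytosolic ribosomal proteins, 28 proteasome subunits and 16 ER chaperone and unfolded protein response genes, limma called 0, with 6, 4, 3 and 3 members at an unadjusted p under 0.05. Small differences shared a direction in 2 lists, with 43 of the 47 ribosomal genes higher (median 0.08) and 27 of the 28 proteasome genes lower (median -0.08). The median over all tested genes was 0.00, and the part of normalization in these small differences was not tested. The oxidative phosphorylation and ER chaperone lists were mixed, with 22 of 48 and 10 of 16 members higher.

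**Figure D2:**
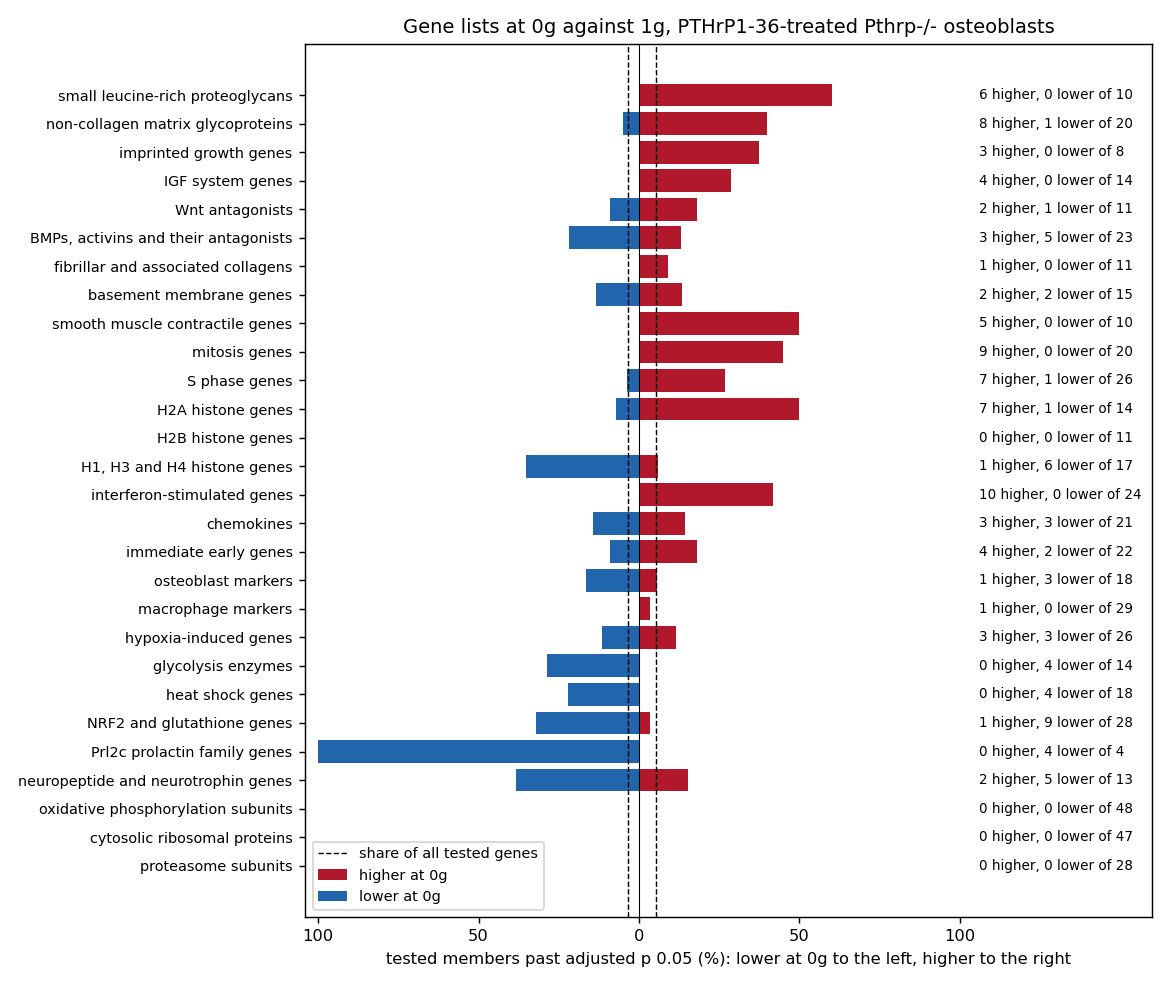
Percent of the tested members of 28 gene lists that were higher (right) or lower (left) at 0g than at 1g in PTHrP1-36-treated Pthrp-/- TOs, with the counts at the right and dashed lines at the share of all tested genes, 5.2% higher and 3.57% lower. Small leucine-rich proteoglycans had 6 of 10 members higher, and the Prl2c genes 4 of 4 lower.

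To see whether the differences needed the peptide, the same contrast was read in untreated Pthrp-/- TOs, which share no array with the treated ones. There 549 genes rose at 0g (5.26%) and 423 fell (4.05%). Of the 543 genes that rose with the peptide, 275 also rose without it, which is 50.6% of the treated list and 50.1% of the untreated list, and 6 fell. Of the 373 that fell with the peptide, 167 also fell without it, 44.8% of the treated and 39.5% of the untreated list, and 5 rose. Across the 10437 genes the log2 differences of the comparisons correlated at 0.58, as a description, since genes share arrays and are not independent. All of the 12 largest rises and the 12 largest falls had the same direction and passed in untreated cells. Lum differed by 2.19 ± 0.12 there, Scara5 by 2.50 ± 0.15 and Cck by -2.33 ± 0.13. The untreated total of 972 was 610 without untreated 0g replicate 1, 1631 without untreated 0g replicate 2, 562 without untreated 1g replicate 1 and 434 without untreated 1g replicate 2.

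The difference between treated and untreated cells was tested as an interaction in the same fit. It passed for 71 genes, 47 of them (0.45%) with a greater 0g minus 1g difference in treated cells and 24 (0.23%) with a smaller one, and 1244 genes (11.9%) had an unadjusted p under 0.05. Cldn11, a tight junction claudin, stood at 6.85 and 6.60 at 0g with the peptide and was not detected at 1g, which makes it at least 3.52-fold higher at 0g. Without the peptide it stood at 4.67 and 5.32 at 0g and at 4.95 and 4.96 at 1g, with detection on 1 of 2 arrays of each group. The fitted interaction passed (adjusted p 0.00383), but 3 of its 4 groups lie at the level where detection begins, so its size is not given. Adh1, an alcohol dehydrogenase that also oxidizes retinol, differed by 1.97 ± 0.14 with the peptide and by 0.35 ± 0.14 without it (interaction 1.62 ± 0.20, adjusted p 0.00383).

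The reverse held for the cold-inducible RNA-binding protein gene Rbm3, at 11.68 and 11.56 at 0g and 11.19 and 11.30 at 1g with the peptide, a difference of 0.37 ± 0.12 that did not pass. Without the peptide Rbm3 stood at 11.80 and 11.59 at 0g and at 9.74 and 9.70 at 1g (1.98 ± 0.12), and the interaction was -1.61 ± 0.17 (adjusted p 0.00337). Its untreated 1g arrays were lower than the other 6 Pthrp-/- arrays. Myom1, which encodes a sarcomere M-band protein, had the same form, with -0.12 ± 0.12 with the peptide and 1.15 ± 0.12 without it. None of the lists had more than 2 members passing this test in 1 direction, except the 29 macrophage markers, with 3 higher. Of these 29, 16 were detected on none of the treated Pthrp-/- arrays. Higher in 2 members were the Prl2c genes (of 4), small leucine-rich proteoglycans (of 10) and PTH receptor and cAMP response genes (of 19). Basement membrane genes were lower in 2 of 15. The median of the Prl2c genes was -1.59 with the peptide and -2.65 without it.

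These interactions rest on few residual degrees of freedom. The untreated 0g duplicates also correlated least of the 8 conditions, at 0.9891 over the tested probes, against 0.9947 for the untreated 1g duplicates. The part of this spread in the totals below was not tested. With only the 8 Pthrp-/- arrays in the fit limma called 0 genes, with 967 at an unadjusted p under 0.05. The total was 21 without treated 0g replicate 1 or replicate 2, 35 without treated 1g replicate 1 and 18 without treated 1g replicate 2. It was 35 without untreated 0g replicate 1, 256 without untreated 0g replicate 2, 23 without untreated 1g replicate 1 and 20 without untreated 1g replicate 2.

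**Figure D3:**
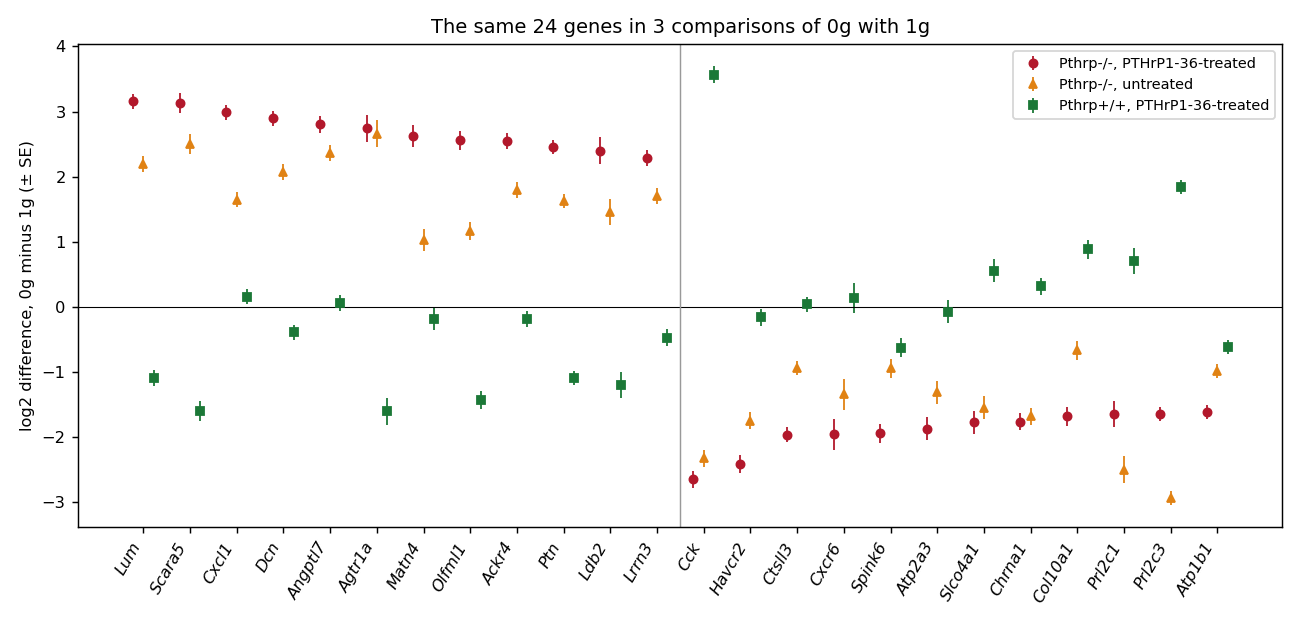
Log2 difference of 0g minus 1g ± SE for the 12 largest rises and 12 largest falls in treated Pthrp-/- TOs, untreated Pthrp-/- TOs and treated Pthrp+/+ TOs. The Pthrp-/- comparisons lie on the same side of 0 for all 24 genes, whereas in Pthrp+/+ TOs Lum is at -1.09 and Cck at 3.57.

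Treated Pthrp-/- TOs were then set against treated Pthrp+/+ TOs, which received the same peptide on the same schedule. In the Pthrp+/+ cells 355 genes rose at 0g (3.4%) and 467 fell (4.47%). Of the 543 genes that rose in Pthrp-/- cells, 126 fell in Pthrp+/+ cells and 25 rose. The 126 genes are 23.2% of the first list and stand among the 467 of the second. Of the 373 genes that fell, 82 rose in Pthrp+/+ cells, 23.1% of the 355 that rose there, and 18 fell. The log2 differences correlated across genes at -0.26, as a description. Whether the 0g and 1g labels of any cultures are exchanged was not tested. The Pthrp+/+ total of 822 was 393 without its 0g replicate 1, 385 without its 0g replicate 2, 411 without its 1g replicate 1 and 425 without its 1g replicate 2.

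The interaction of genotype with gravity passed for 1258 genes, 718 (6.88%) with a greater 0g minus 1g difference in Pthrp-/- cells and 540 (5.17%) with a smaller one. Cck stood at 9.89 on both 0g arrays and at 6.19 and 6.45 at 1g in Pthrp+/+ cells, a rise of 3.57 ± 0.13 against the fall of 2.65 in Pthrp-/- cells (interaction -6.21 ± 0.19, adjusted p 8.83e-10). Lum stood at 11.98 and 11.77 at 0g and at 13.05 and 12.87 at 1g in Pthrp+/+ cells (-1.09 ± 0.12), so the Pthrp-/- cells at 1g were lowest of the 4 treated groups (interaction 4.24 ± 0.17). Prl2c3 stood at 12.52 and 12.53 at 0g and at 10.73 and 10.64 at 1g in Pthrp+/+ cells (interaction -3.49 ± 0.15). For each of these genes the directions were opposite in the genotypes. The total of 1258 was 810 without Pthrp+/+ 0g replicate 1, 821 without Pthrp+/+ 0g replicate 2, 819 without Pthrp+/+ 1g replicate 1 and 830 without Pthrp+/+ 1g replicate 2.

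The same split was seen in Scara5 (interaction 4.73 ± 0.21), in Agtr1a (4.34 ± 0.29) and in Sfrp2, which was at -2.29 ± 0.18 in Pthrp+/+ cells (interaction 3.77 ± 0.25). The size for Agtr1a is not exact, since not every treated Pthrp-/- array at 1g detected it. Nqo1 differed by 1.82 ± 0.12 in Pthrp+/+ cells (interaction -2.93 ± 0.17) and Bmp4 by -1.28 ± 0.10. Atp1b1 was lower at 0g in both genotypes, but by less in Pthrp+/+ cells (-0.61 ± 0.11) than in the Pthrp-/- cells given above. The linear sum of the macrophage markers was 117553 and 119841 at 0g and 130608 and 136097 at 1g in the Pthrp+/+ cells, far above that of the Pthrp-/- cells, and its part in the genotype differences was not tested.

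The interaction was also counted over the lists. Among small leucine-rich proteoglycans the interaction was higher in 6 and lower in 1 of 10, and in Pthrp+/+ cells 1 rose and 4 fell. Mitosis genes passed upward in 9 of 20 and interferon-stimulated genes in 10 of 24, with 0 downward in either, and in Pthrp+/+ cells 1 member of each list fell and 0 rose. NRF2 and glutathione genes passed downward in 10 of 28 and upward in 1. Of 11 H2B genes 7 rose in Pthrp+/+ cells and 7 passed downward in the interaction. Hypoxia-induced genes fell in 21 of 26 members in Pthrp+/+ cells, and 15 passed upward in the interaction against 1 downward. Of 14 glycolysis enzymes 4 fell and 0 rose in Pthrp-/- cells, and 10 fell and 1 rose in Pthrp+/+ cells, with 3 passing upward and 1 downward in the interaction. Smooth muscle contractile genes rose in 5 of 10 in Pthrp-/- cells, and in Pthrp+/+ cells 5 rose and 1 fell.

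**Figure D4:**
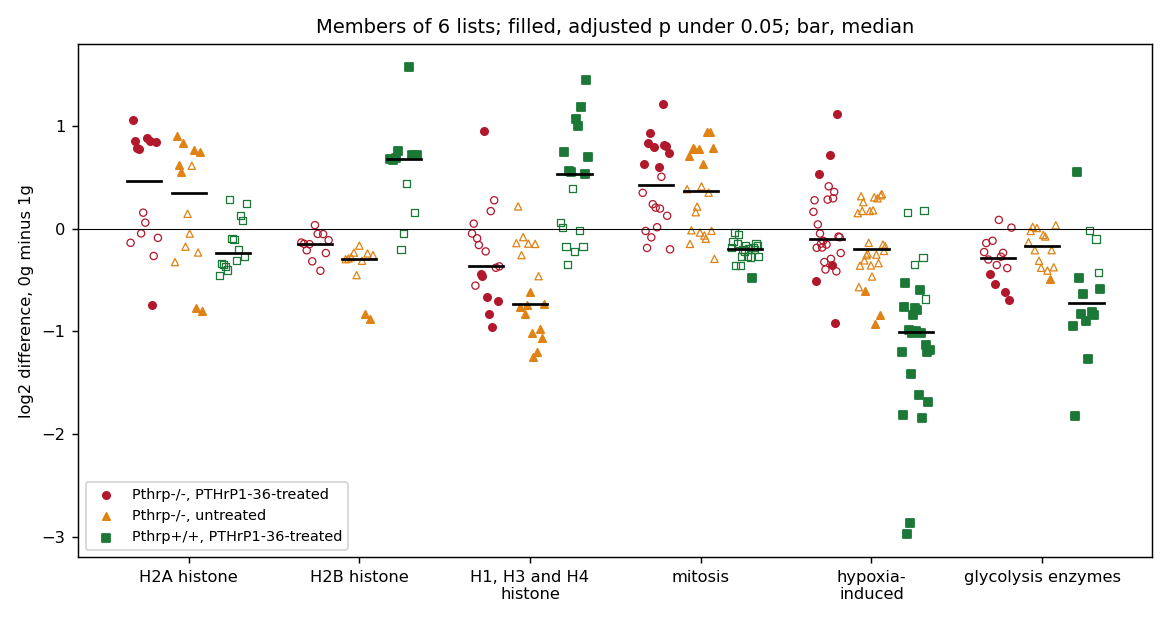
Log2 difference of 0g minus 1g for each tested member of 6 gene lists in treated Pthrp-/-, untreated Pthrp-/- and treated Pthrp+/+ TOs, with filled points for an adjusted p under 0.05 and a bar at the median. Mitosis genes have a median of 0.43 in treated Pthrp-/- TOs, and hypoxia-induced genes of -0.10 there, while 21 of these 26 genes fell in treated Pthrp+/+ TOs.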

How the data were processed

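RNA of 16 cultures was measured on the Illumina Mouse Ref-8 v2.0 expression array, which carries 25697 probes. The deposited table holds a scanner intensity and a detection p-value for each probe on each array, which the authors took from the scanner without normalization. A second deposited table holds log2 values that the authors normalized with lumi in FlexArray, with options not given in the sources used here; it served as an alternative. Probes were named through the platform annotation, and 23978 had 1 gene symbol.

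Intensities were background-corrected with neqc (offset 16), quantile normalized and taken to log2. Probes with a detection p-value under 0.05 on at least 2 arrays were kept, 15279 probes of 10437 genes, and each gene was represented by its probe of highest mean level. One limma 3.58.1 model (R 4.3.3) of the 8 condition means, with 8 residual degrees of freedom, gave every contrast and interaction, with Benjamini-Hochberg adjustment over all tested probes. The empirical Bayes test of the study's methods was run as a random variance model alternative. Where no array of a group detected a gene, its fold is a bound, taken from the lowest signal at which the arrays detect probes.

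Named genes are the 12 largest rises and falls among calls without overlapping arrays, 6 per direction in each interaction, and the 4 strongest members of each described list among those that pass. Podn, Gstm1, Rrm2, Sparc, Col1a1, Alpl, Ibsp and the macrophage markers that are named fall outside that rule and were chosen after their values were seen. The 62 lists and all genes were chosen with earlier results of these data known. Alternatives changed the background correction, normalization, probe filter, arrays in the fit, variance model, array weights, replicate block and probe rule, and left out single arrays. The fitting code was tested on simulated data. The interferon-stimulated response element and the cell cycle genes homology region were searched on both strands of promoter windows that came from RefSeq (GRCm38.p6).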

Additional observations from a re-analysis of the deposited data

Results flagged for a closer look

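A difference between the treated and untreated Pthrp-/- TOs in their 0g minus 1g difference passed the limma interaction test for 71 genes. The interactions were positive, which means a greater difference with PTHrP1-36, for Adh1 (1.62), Matn4 (1.60), Tril (1.46), an accessory protein of Toll-like receptor signaling, Olfml1 (1.40) and Gcnt1 (1.38), a glycosyltransferase. Cldn11 was fitted at 2.14, but treated cells at 1g and untreated cells lie at the level where detection begins, so this is no exact size. The size for Olfml1 is not exact either, since only 1 treated array at 1g detected it. Matn4 and Olfml1 rose at 0g in both, whereas Gcnt1 differed by 0.67 with the peptide and by -0.71 without it. With only the 4 arrays compared or only the 8 Pthrp-/- arrays in the fit, the Gcnt1 difference with the peptide did not pass. The interactions were negative for Rbm3 (-1.61), Fxyd6 (-1.42), a regulator of the sodium pump, Aplp1 (-1.33), an amyloid precursor-like protein, Myom1 (-1.28), Stac (-1.27), an adaptor protein, and Klhl30 (-1.24), a kelch family member. Fxyd6 stood at 7.32 and 7.33 at 0g and at 8.37 and 8.35 at 1g with the peptide, and at 7.36 on both 0g arrays and at 7.00 and 6.95 at 1g without it. Aplp1 fell by 0.67 with the peptide and was 0.67 higher at 0g without it, and its fall did not pass when any 1 of the treated arrays was left out.

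A difference between treated Pthrp-/- and treated Pthrp+/+ TOs passed the interaction test for 1258 genes. The largest positive interactions were in Scara5 (4.73), Agtr1a (4.34), Lum (4.24), Olfml1 (3.99), Sfrp2 (3.77) and Ldb2 (3.60), all of which rose in Pthrp-/- and fell in Pthrp+/+ TOs at 0g. Agtr1a and Olfml1 were each detected on only 1 treated Pthrp-/- array at 1g, so their sizes are not exact. The largest negative ones were in Cck (-6.21), Akr1c18 (-3.75), an enzyme that inactivates progesterone, Prl2c3 (-3.49), Prl2c4 (-3.36), Serpinb2 (-3.05), a plasminogen activator inhibitor, and Nqo1 (-2.93). These 6 fell in Pthrp-/- and rose in Pthrp+/+ TOs. Serpinb2 differed by -0.64 and 2.40 in these comparisons, and its fall in Pthrp-/- TOs did not pass when any 1 of the 4 arrays was left out.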

How the results depend on the processing

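Of 267 genes that the naming rule selects in the treated Pthrp-/- comparison, not all of them described above, 176 passed, and 113 of these passed under every alternative, the 24 largest differences among them; none reversed. All 12 named genotype interactions passed under every alternative run for them, and none of the 12 named treatment interactions did. The alternatives were not the same for both. The fit with only the 8 Pthrp-/- arrays, which called 0 treatment interactions, holds no Pthrp+/+ array and was not run for the genotype interaction. The count of 916 genes was 564 with only the 8 Pthrp-/- arrays and 580 with only the 4 arrays compared (genes higher 348 and 351, genes lower 216 and 229), and 502 to 610 without 1 array (higher 309 to 399, lower 188 to 211). With array weights 575 were lower. Genes above 2-fold numbered 69 without background correction and 34 in the authors' values, and genes below 0.5-fold 36 and 14. Untreated Pthrp-/- TOs gave 447 genes with only the 8 Pthrp-/- arrays, 410 with array weights and 434 to 1631 without 1 array. Treated Pthrp+/+ TOs gave 2032 with array weights (1016 higher, 1016 lower) and 385 to 779 without 1 array (higher 144 to 335, lower 240 to 445). Their genes above 2-fold numbered 28 without background correction and 13 in the authors' values, and those below 0.5-fold 61 and 31. The treatment interaction gave 141 genes in the authors' values, 0 with only the 8 Pthrp-/- arrays (967 at an unadjusted p under 0.05), 28 with array weights and 18 to 256 without 1 array. The genotype interaction gave 2218 with array weights and 810 to 977 without 1 array. Calls over all gene lists numbered 197, and 126 to 151 without 1 array. Fits with fewer arrays have fewer residual degrees of freedom; the cause of the other changes was not tested. Leaving out untreated and Pthrp+/+ arrays was chosen after seeing the data.

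Same-numbered arrays did not deviate together in every pair of groups. Their deviations correlated at -0.02 between the treated Pthrp-/- groups and at 0.22 between the untreated ones, and over all pairs of conditions the range was -0.30 to 0.22, so the numbers were not taken as pairs. With the replicate number as a block the counts were 906 (536 higher, 370 lower), 930 for untreated Pthrp-/-, 813 for treated Pthrp+/+, 63 and 1244 for the interactions of treatment and genotype, and 196 over the lists.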
